A study of Mus musculus with 9 samples.

Results

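The G2/M and mitosis genes are a list of 42 genes whose products drive a cell from the end of DNA replication through chromosome segregation to cytokinesis. Each gene was found by its symbol in the platform annotation of the array. Of the 42 genes, 41 had a probe set, out of 22180 genes named in all, and all 41 were above the limit set for dim genes, which left 15526 genes for testing. The cyclin gene Ccnb1 was not analysed here.

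The cells were MYCCaP, a mouse prostate cancer line from a tumour of a mouse with a prostate-specific MYC transgene. That transgene is driven by a probasin-based promoter, which responds to androgen. Total RNA was measured on 9 arrays (Affymetrix Mouse Gene 2.0 ST). Parental MYCCaP cells received dihydrotestosterone (DHT), an androgen, and fill 3 arrays labelled technical replicates, so they count as 1 sample. The recurrent lines, from tumours that recurred after castration of the host, carry the label -DHT. Of these lines 3 came from mice that received vehicle and 3 from mice that received AZD1208, an inhibitor of the PIM kinases. All 3 groups carry the same MYC transgene. The parental line differs from both recurrent groups in the androgen of its medium and in not having been grown in a castrated mouse, and these cannot be told apart. The labels do not say if the lines of a group come from different mice, nor how densely the cultures had grown at harvest.

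Mitotic genes are transcribed late in the cell cycle, so their level in a culture follows how many of its cells are dividing. In resting cells the DREAM complex, built from the pocket proteins p107 and p130, an E2F factor and the MuvB core, holds them silent. In cycling cells MuvB joins MYBL2 and then FOXM1, and the same promoters become active. Many of these promoters carry the cell cycle homology region (CHR), the site bound by MuvB, and CCAAT boxes, bound by NF-Y. The proteins act in order: CDK1 with its cyclins starts mitosis, kinetochores and kinesins move the chromosomes, the spindle checkpoint delays anaphase until all are attached, and the centralspindlin and anillin machinery divides the cell.

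The promoters are shown because they are a feature that the members share and that the gene list did not use. RefSeq windows of 300 bases (assembly GRCm38.p6, 250 bases before and 50 after the start of transcription) were found for 35 of the 42 genes. No window was found for Ccna2, Cdc25c, Foxm1, Aurkb, Incenp, Kif20a and Tpx2. The CHR letters TTTGAA, searched on both strands, were in 25 of the 35 windows (71.4%), against 18.1% of the 27025 windows of all genes. The CCAAT letters, also searched on both strands, were in 25 of 35 (71.4%, against 37.9%), and at least 2 copies were in 16 of 35 (45.7%, against 12.2%). Both motifs together were in 20 of 35 (57.1%, against 7.12%). An E2F site, written TTTCCCGC or TTTGGCGC and searched on both strands, was in 2 of 35 (5.71%, against 1.63%), those of Kif15 and Kif18a. A match of letters is a description and not a bound site.

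The 4 windows below belong to the members with the most negative difference between recurrent lines and the parental line among those with a CHR and at least 2 CCAAT motifs. Each runs 5′ to 3′ on the strand of its gene, with both motifs, or their reverse complements TTCAAA and ATTGG, in capitals.
Kif22, chr7:127042371-127042670, minus strand: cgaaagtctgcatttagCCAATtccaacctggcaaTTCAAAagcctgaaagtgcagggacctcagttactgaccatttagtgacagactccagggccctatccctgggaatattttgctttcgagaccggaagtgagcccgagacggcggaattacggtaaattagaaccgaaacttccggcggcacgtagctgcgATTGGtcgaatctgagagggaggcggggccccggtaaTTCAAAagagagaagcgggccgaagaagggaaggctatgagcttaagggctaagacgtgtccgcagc
Aurka, chr2:172370521-172370820, minus strand: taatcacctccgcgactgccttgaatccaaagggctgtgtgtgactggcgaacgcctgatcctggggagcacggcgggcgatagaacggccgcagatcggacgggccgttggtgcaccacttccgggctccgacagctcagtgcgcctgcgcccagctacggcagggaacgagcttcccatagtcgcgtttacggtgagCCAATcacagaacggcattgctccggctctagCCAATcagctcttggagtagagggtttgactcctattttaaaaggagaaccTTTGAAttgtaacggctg
Cdc20, chr4:118437294-118437593, minus strand: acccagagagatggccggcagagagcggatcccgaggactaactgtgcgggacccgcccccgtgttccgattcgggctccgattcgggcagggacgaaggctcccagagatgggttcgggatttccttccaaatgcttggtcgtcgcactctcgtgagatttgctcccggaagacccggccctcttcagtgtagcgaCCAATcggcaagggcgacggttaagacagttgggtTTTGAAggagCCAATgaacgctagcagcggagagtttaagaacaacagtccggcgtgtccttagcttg
Ccnb2, chr9:70421505-70421804, minus strand: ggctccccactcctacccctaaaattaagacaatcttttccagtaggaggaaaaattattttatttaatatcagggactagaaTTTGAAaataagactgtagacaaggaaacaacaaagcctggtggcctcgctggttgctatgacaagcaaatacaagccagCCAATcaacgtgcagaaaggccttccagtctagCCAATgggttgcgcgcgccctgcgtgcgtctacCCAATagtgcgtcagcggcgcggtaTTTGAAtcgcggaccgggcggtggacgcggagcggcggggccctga
Positions are counted from the start of transcription. In the window of Cdc20 the CHR starts at -18, with CCAAT motifs at -53 and -8. In that of Ccnb2 CCAAT motifs start at -87, -54 and -21 and CHR motifs at -167 and 5. Kif22 holds CHR motifs, both inverted, at -215 and -17 and CCAAT motifs at -233 and, inverted, -54. Aurka holds CCAAT motifs at -51 and -19 and a CHR at 33. Members with and without the CHR letters did not stand apart in the recurrent lines: the median log2 difference from the parental line was -0.44 for 25 members with it and -0.52 for 9 measured members without it.

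The deposited values are log2 intensities, so a difference of 1 is a factor of 2 in signal. The array medians lay between 6.22 and 6.36. The interquartile range of an array was 2.98 to 3.12, except in AZD1208 3, where it was 2.87. That line also had the lowest array quality weight of the 7 samples (0.34), followed by AZD1208 2 (0.58) and vehicle 1 (0.63), with up to 2.89 in the others. These weights fall as a line departs from its group in the fit, so they do not measure array quality alone. Among markers of the prostate epithelium, Krt8 was at 8.24 to 10.44 over the arrays, while Epcam was at 4.51 to 5.08, below the limit for dim genes. The leukocyte gene Ptprc, at 4.49 to 5.12, was also below that limit. The endothelial gene Pecam1 was at 6.39 to 6.80 and the fibroblast collagen gene Col1a1 at 7.06 to 7.47. Other fibroblast and epithelial markers differed between the lines and the parental cells, and their values stand with the marker lists further on.

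The first comparison asked how the recurrent lines differ from the parental line. All 41 measured members were lower in the recurrent lines, by 0.06 to 0.82 on the log2 scale, with a median difference of -0.47. Of all genes tested 54.7% were lower, with a median of -0.02. The members had been chosen with earlier results of these data known, so these counts are a description. In 29 members each of the 6 lines lay below the parental mean (10.9% of all genes did), and in 18 each line lay below the lowest of the 3 parental arrays (5.09%). No member passed the threshold on its own (limma with Benjamini-Hochberg adjustment, adjusted p = 1 for each), and 0% of all 15526 genes did. An unadjusted p under 0.05 was found for 2 members, Racgap1 (0.0427) and Aurka (0.0438), both lower, against 0.754% of all genes lower and 2% higher at that level. In RNA of whole cultures, fewer dividing cells and less of a transcript per dividing cell cannot be told apart.

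**Figure D1:**
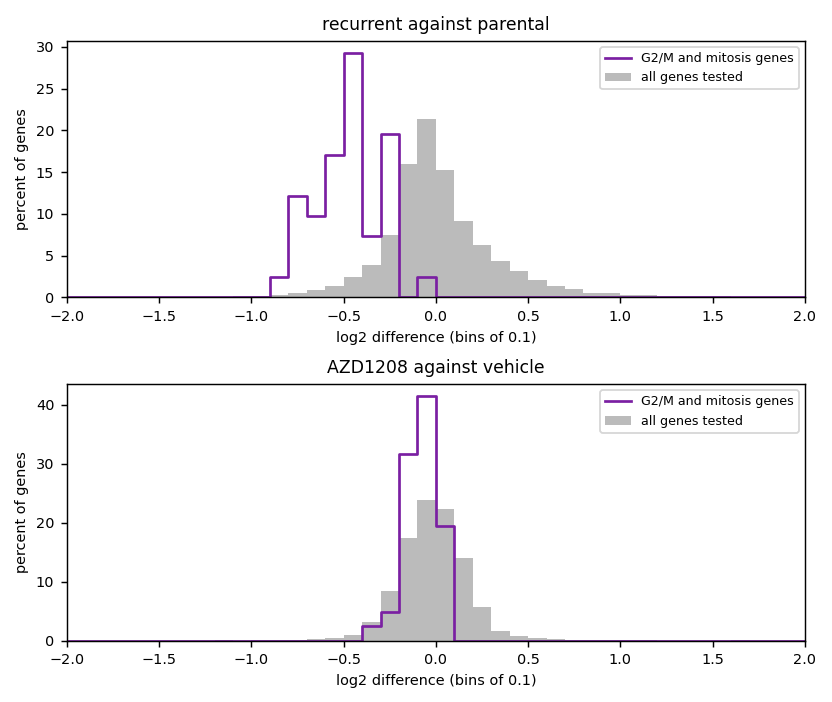
Share of genes, in percent (vertical axis), by log2 difference in bins of 0.1 (horizontal axis), for the 15526 genes tested (grey bars) and the 41 G2/M and mitosis genes (line), with recurrent against parental above and AZD1208 against vehicle below; genes beyond -2 or 2 are not drawn. In the upper panel the mitotic genes lie left of 0, with a median of -0.47, and in the lower panel they lie around -0.05.

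The switch into mitosis is made by CDK1, its cyclins and the CDC25 phosphatases that activate them. All 5 measured genes were lower in each of the 6 lines. Cdk1 was at 12.04, 12.06 and 12.18 in the parental arrays, at 11.35, 11.96 and 12.01 in the vehicle lines and at 11.90, 11.75 and 11.88 in the AZD1208 lines. Every line lay below the parental arrays, vehicle 1 furthest, and the fitted difference was -0.28 (SE 0.27). Ccna2, the cyclin of S and G2 phase, differed by -0.35 (SE 0.28) and the mitotic cyclin gene Ccnb2 by -0.44 (SE 0.35). Cdc25b, the phosphatase that starts the activation of CDK1, differed by -0.54 (SE 0.30).

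Cdc25c, the phosphatase that amplifies it, was at 9.31, 9.34 and 9.37 in the parental arrays. It was at 7.995, 9.03 and 9.33 in the vehicle lines and at 8.27, 8.41 and 8.60 in the AZD1208 lines. Vehicle 3 was thus level with the parental arrays while the other 5 lines were below all of them, and the fitted difference was -0.74 (SE 0.44), or 1.67-fold lower.

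The kinases that act at mitotic entry, together with the transcription factor FOXM1, had the lowest median of the role groups (-0.67 over 5 genes). Aurka, the centrosome kinase, was at 11.56, 11.52 and 11.69 in the parental arrays. It was at 10.36, 11.05 and 11.15 in the vehicle lines and at 10.88, 10.79 and 10.92 in the AZD1208 lines. No line reached the parental arrays, and the difference was 1.66-fold (-0.73, SE 0.30). Plk1, the polo-like kinase that triggers CDK1 activation and bipolar spindles, was at 12.56, 12.45 and 12.51 in the parental arrays, at 11.43, 12.06 and 12.25 in the vehicle lines and at 11.69, 11.48 and 12.10 in the AZD1208 lines (-0.67, SE 0.35). Here too every line was below every parental array.

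Melk, a kinase gene that peaks in mitosis, differed by -0.73 (SE 0.38), and its AZD1208 lines lay close together at 9.12, 9.04 and 9.09. Nek2, which separates the centrosomes, differed by -0.62 (SE 0.37). Foxm1 was at 10.63, 10.48 and 10.54 in the parental arrays, at 9.09, 10.48 and 10.71 in the vehicle lines and at 9.76, 9.92 and 10.46 in the AZD1208 lines. Vehicle 3 was above the parental arrays, vehicle 1 was lowest by far, and the difference of -0.48 was smaller than its SE of 0.56.

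The chromosomal passenger complex carries Aurora B to centromeres and then to the midzone. Its scaffold gene Incenp was at 10.57, 10.48 and 10.39 in the parental arrays, at 9.12, 10.11 and 10.23 in the vehicle lines and at 9.70, 9.51 and 9.81 in the AZD1208 lines. All lines were lower (-0.73, SE 0.39). The kinase gene Aurkb differed by -0.48 (SE 0.36). Birc5, which encodes survivin, differed by -0.54 (SE 0.47), with vehicle 3 (10.03) above the parental arrays (9.84 to 9.94).

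The spindle checkpoint holds back CDC20, the activator of the anaphase-promoting complex. Cdc20 itself was at 12.44, 12.35 and 12.50 in the parental arrays, at 11.45, 11.92 and 12.19 in the vehicle lines and at 11.83, 11.54 and 12.22 in the AZD1208 lines (-0.57, SE 0.33). Every line was lower, by 0.21 at the least. Mad2l1 (-0.52, SE 0.32) and Bub1b (-0.47, SE 0.34), which encode the checkpoint proteins MAD2 and BUBR1, were also lower in all 6 lines. Ttk, the checkpoint kinase MPS1, differed by -0.26 (SE 0.38) and was above the parental mean in AZD1208 2. Bub1 differed by -0.40 (SE 0.44), with the parental arrays themselves spread from 9.35 to 9.95.

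The centromere and kinetochore genes had the median nearest to 0 (-0.30 over 5 genes). Cenpa, the centromeric histone, was lower in all lines (-0.41, SE 0.29). Cenpe, a kinetochore motor, was at 8.84, 9.05 and 8.37 in the parental arrays, at 8.41, 8.56 and 7.82 in the vehicle lines and at 8.73, 8.75 and 7.43 in the AZD1208 lines (-0.47, SE 0.51). Its lines numbered 3 were lowest in both groups, and the other 4 lay within the spread of the parental arrays. Cenpf (-0.30, SE 0.48), Ndc80 (-0.22, SE 0.44) and Nuf2 (-0.21, SE 0.33), the last a partner of NDC80 at the microtubule, each differed by less than the SE.

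The kinesins, motors that shape the spindle, ranged most widely. Kif22, which pushes chromosome arms, was at 10.36, 10.35 and 10.25 in the parental arrays, at 8.87, 9.79 and 9.90 in the vehicle lines and at 9.23, 9.44 and 9.76 in the AZD1208 lines. This was the largest difference of the list, 1.77-fold (-0.82, SE 0.39), with all lines below all parental arrays. Kif2c, a kinesin that dismantles microtubules, was at 10.85, 10.85 and 10.80 in the parental arrays, at 9.41, 10.30 and 10.44 in the vehicle lines and at 10.05, 9.78 and 10.24 in the AZD1208 lines (-0.79, SE 0.38). Here the parental arrays agreed within 0.03 (technical SD) and the lines were 0.39 to 1.42 below their mean.

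Kif23, the motor subunit of centralspindlin, differed by -0.67 (SE 0.30) and Kif20a, a motor of the central spindle, by -0.63 (SE 0.41). Kif15 (-0.55, SE 0.51), Kif14 (-0.49, SE 0.41), Kif20b (-0.46, SE 0.45), Kif11, the motor that separates the spindle poles (-0.43, SE 0.39), and the chromokinesin gene Kif4 (-0.30, SE 0.32) were nearer to the parental line. Kif18a, which dampens chromosome movement, varied most between lines. It was at 7.33, 7.37 and 6.94 in the parental arrays, at 7.55, 7.39 and 6.48 in the vehicle lines and at 8.27, 7.63 and 5.62 in the AZD1208 lines. There 4 lines lay above the parental mean, and the difference of -0.06 (SE 0.86) turned its sign with array quality weights (0.29) and without AZD1208 3 (0.33), vehicle 3 (0.11), or parental array 1 (0.00068) or 2 (0.02).

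The 4 cytokinesis genes were lower in all 6 lines, with small spreads. Racgap1, the GTPase-activating subunit of centralspindlin, was at 12.02, 12.05 and 11.96 in the parental arrays, at 11.16, 11.45 and 11.65 in the vehicle lines and at 11.48, 11.41 and 11.57 in the AZD1208 lines. The groups did not overlap with the parental arrays, and the difference of -0.56 (SE 0.23), 1.47-fold, had the smallest unadjusted p of the list. Prc1, which bundles midzone microtubules, differed by -0.45 (SE 0.22), the scaffold gene Anln by -0.31 (SE 0.18) and Ect2, which activates RhoA at the cleavage furrow, by -0.21 (SE 0.20).

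Of the remaining genes, Tpx2, which activates Aurora A on the spindle, differed by -0.55 (SE 0.28) and Top2a, the topoisomerase that untangles sister chromatids, by -0.30 (SE 0.25), both in all 6 lines. The proliferation marker gene Mki67 was at 10.96, 11.11 and 10.52 in the parental arrays, at 10.35, 11.01 and 10.27 in the vehicle lines and at 10.53, 10.53 and 9.96 in the AZD1208 lines (-0.42, SE 0.34). Vehicle 2, AZD1208 1 and AZD1208 2 lay within the range of the parental arrays and the other 3 lines below it. Hmmr, a spindle and hyaluronan-binding protein gene, differed by -0.27 (SE 0.33).

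**Figure D2:**
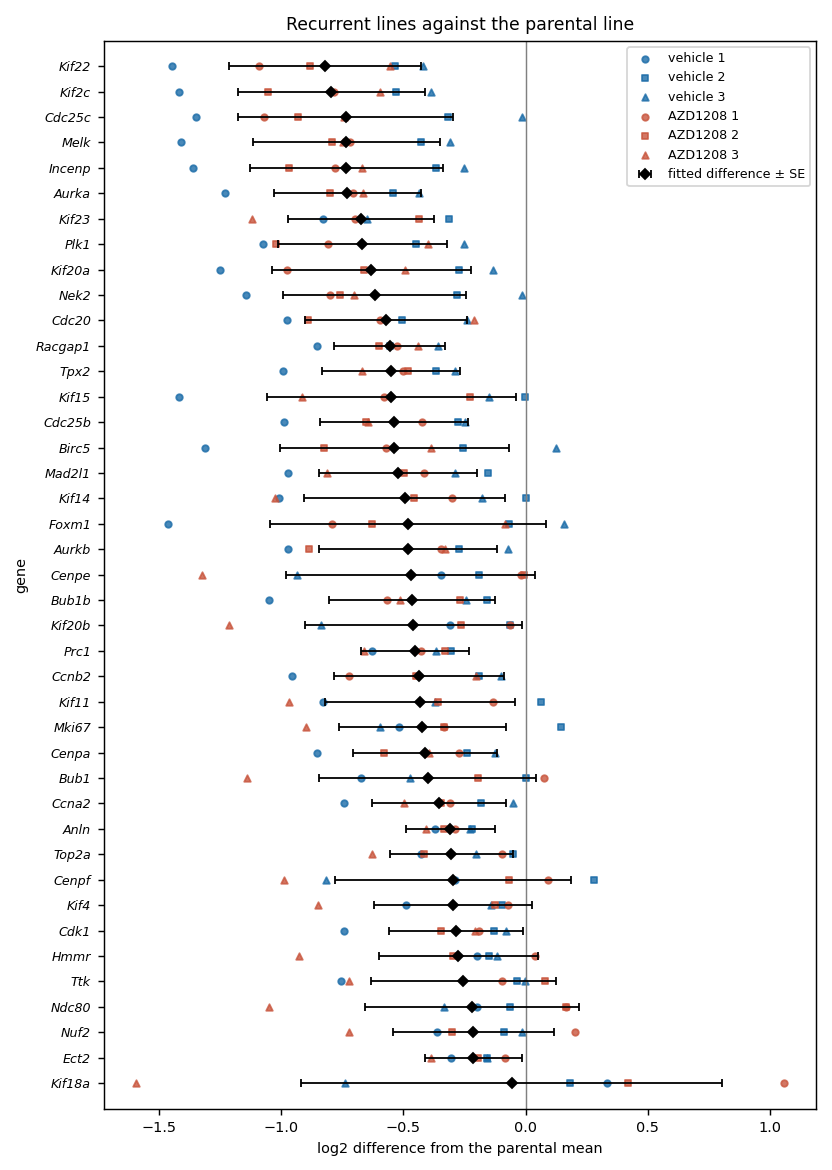
Log2 difference from the mean of the 3 parental arrays (horizontal axis) of each of the 41 genes (vertical axis), ordered by the fitted difference. Coloured marks are the 6 recurrent lines, and black diamonds with bars are the fitted recurrent minus parental difference ± SE, from -0.82 for Kif22 to -0.06 for Kif18a.

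The other genes of the G2/M and mitosis programme were taken from 5 lists, also chosen with earlier results of these data known. The lists held 95 genes, of which 90 were tested. Of these, 70 were lower and 20 higher in the recurrent lines (54.7% of all genes were lower), with a median of -0.24, and 29 of the 90 were lower in all 6 lines (10.9% of all genes). None passed the threshold (limma, adjusted p = 1 for each), and 4 lower and 1 higher had an unadjusted p under 0.05 (0.754% and 2% of all genes). Of 21 spindle and centrosome genes 20 were lower (median -0.30), among them the minus-end kinesin gene Kifc1 (-0.58, SE 0.20) and Gtse1 (-0.77, SE 0.30). The spindle count takes in Ube2c (-0.37, SE 0.24) and Lmnb1 (-0.62, SE 0.42), which are not spindle or centrosome genes proper. Of 18 cohesion and condensin genes 15 were lower (median -0.25), among them Cdca5, the cohesin protector sororin (-1.01, SE 0.51), and the condensin II subunit gene Ncaph2 (-0.37, SE 0.20). That count takes in Cdca8 (-0.45, SE 0.36), a gene of the passenger complex. Of 26 further checkpoint and kinetochore genes 19 were lower (median -0.19), with Spc24, a subunit of the NDC80 complex, at -1.04 (SE 0.36) and Mad1l1 at -0.48 (SE 0.23). Among 13 regulators of entry 10 were lower (median -0.31). These included Fzr1, the G1 activator of the anaphase-promoting complex (-0.51, SE 0.29), the CDK1-inhibiting kinase gene Wee1 (-0.41, SE 0.30) and the CDK inhibitor gene Cdkn1a (-0.45, SE 0.31). Cdkn1a was not lower in every line. It differed from the parental mean by 0.07 in vehicle 1, -0.64 in vehicle 2 and -0.01 in vehicle 3. In the AZD1208 lines it differed by -0.45, -0.89 and -0.79.

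The DREAM and MYBL2 genes, whose products were described above as regulators of mitotic genes, divided evenly, with 6 of 12 lower (median -0.01). Binding of these products to the promoters shown was not measured. Mybl2, the activator, was at 11.78 in the parental line (mean of its arrays), at 10.02, 11.14 and 11.44 in the vehicle lines and at 10.58, 10.12 and 11.12 in the AZD1208 lines (-1.04, SE 0.54). Rbl2, which encodes the repressive pocket protein p130, was at 8.62 in the parental line, at 9.43, 9.27 and 9.204 in the vehicle lines and at 9.58, 9.16 and 9.07 in the AZD1208 lines (0.67, SE 0.24). Tfdp2, a dimer partner of the E2F factors, was higher by 1.27 (SE 0.60). Mybl2 was thus below and Rbl2 and Tfdp2 above the parental value in 6 of 6 lines, with none past the adjusted threshold. No other gene of the 12 lay on the same side in all 6 lines. Of all genes tested, 10.9% lay below and 11.8% above in all 6. The other pocket protein and E2F genes of the list, named after their values were seen, were not higher with Rbl2. These were E2f4 (-0.42, SE 0.36), Rbl1 (-0.08, SE 0.30) and E2f5 (-0.05, SE 0.21). Myc, of which these probes may or may not read the transgene, differed by 0.08 (SE 0.40), and its sign turned without vehicle 2 (-0.04) or AZD1208 3 (-0.04).

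The 6 lines differed among themselves in how far the mitotic genes lay below the parental line. The median difference over the 41 genes was -0.85 in vehicle 1, -0.19 in vehicle 2 and -0.24 in vehicle 3. It was -0.41 in AZD1208 1, -0.43 in AZD1208 2 and -0.67 in AZD1208 3, while that of all genes tested lay between -0.05 and 0.04 in the 6 lines. Every member had its lowest value in 1 of 2 lines, 24 of them in vehicle 1 and 17 in AZD1208 3. The highest line was vehicle 3 for 19 members, vehicle 2 for 12, AZD1208 1 for 7, AZD1208 2 for 2 and AZD1208 3 for 1. The lowest and highest lines were not counted over all genes tested. Whether these counts are particular to the members is therefore not known.

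**Figure D3:**
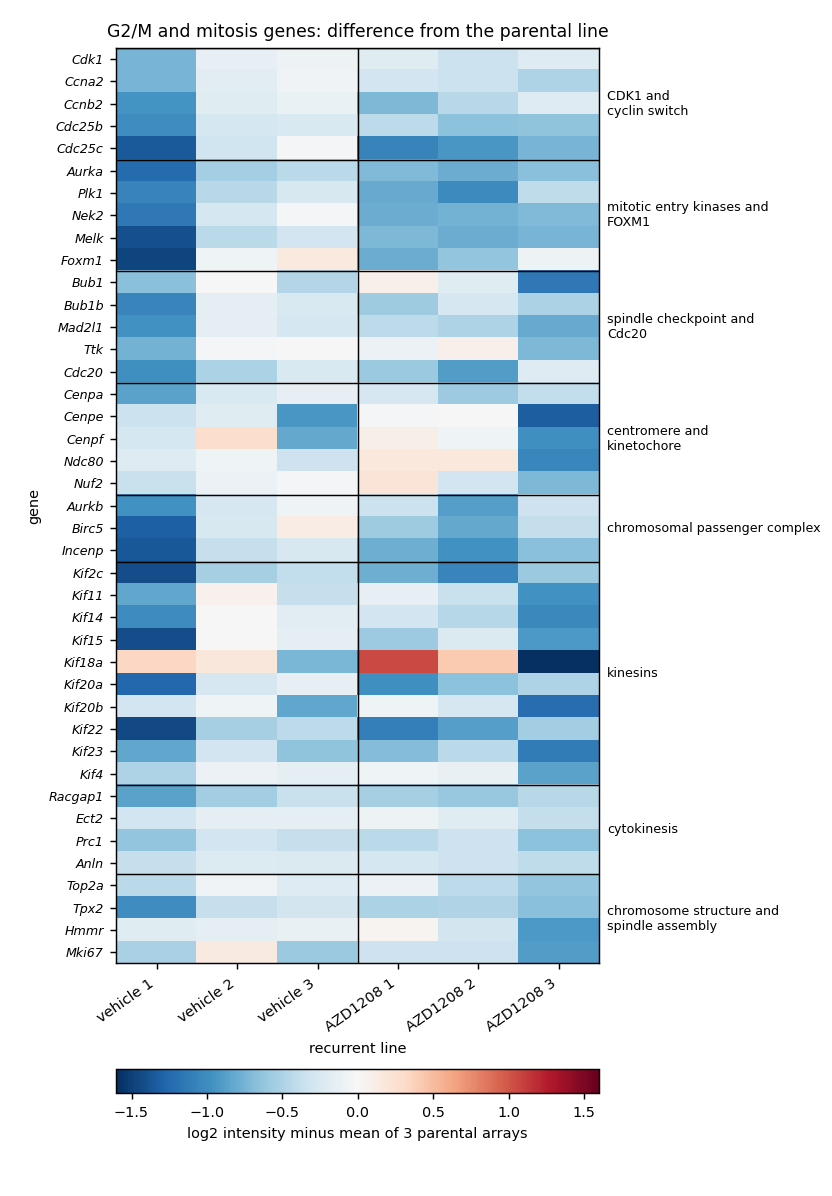
Log2 intensity minus the mean of the 3 parental arrays (colour, blue below and red above) for 41 genes (rows, by role) in the 6 recurrent lines (columns). Deep blue lies in vehicle 1 for the entry kinases, the passenger complex and the kinesin genes Kif22, Kif2c and Kif15, among others. In AZD1208 3 it lies on Kif18a, Cenpe, Kif20b and other kinetochore and kinesin genes.

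The role groups divided between these lines. For the entry kinases and FOXM1 the median was -1.23 in vehicle 1 and -0.67 in AZD1208 3, and for the passenger complex it was -1.31 and -0.39. For the centromere and kinetochore genes the order was turned, with -0.35 in vehicle 1 and -0.99 in AZD1208 3. For chromosome structure and spindle assembly it was -0.47 and -0.78. The kinesins were low in both lines (-0.92 and -0.94).

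**Figure D4:**
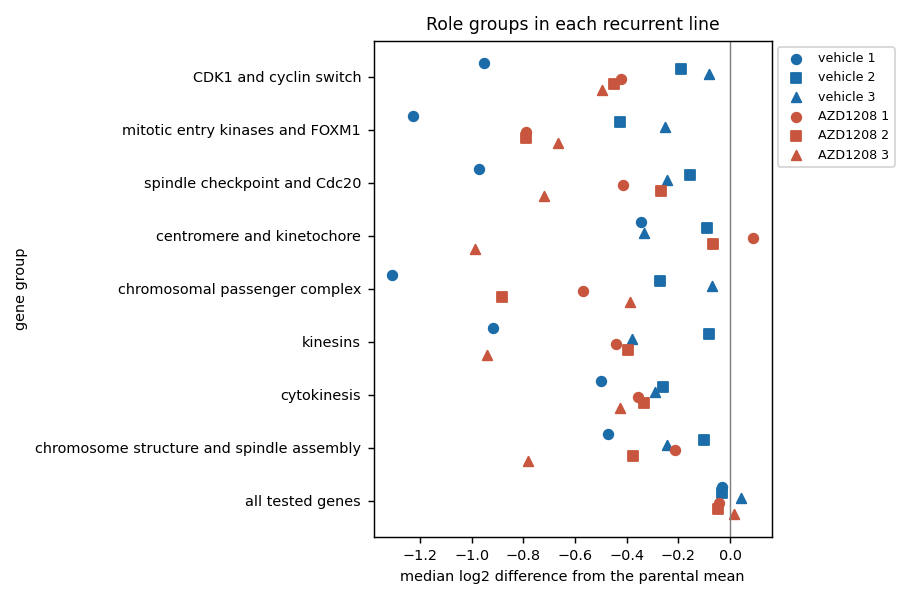
Median log2 difference from the parental mean (horizontal axis) of each role group and of all genes tested (vertical axis), with 1 mark for each recurrent line. Vehicle 1 is leftmost for the passenger complex (-1.31) and AZD1208 3 for the centromere and kinetochore genes (-0.99), and the medians of all genes stay between -0.05 and 0.04.

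The members that were lowest in AZD1208 3 were, by the median, measured less evenly on the parental arrays, which hold the same line. Their technical SD had a median of 0.21 (0.10 to 0.44) over 17 genes, against 0.08 (0.03 to 0.20) over the 24 genes that were lowest in vehicle 1. The 17 genes were also dimmer, with a median level of 9.37, against 10.38 for the 24. In all 17 the second parental array was above the third, by a median of 0.40, and in 15 of the 24, by a median of 0.08. Of all genes tested 50.6% were higher on the second array. AZD1208 3 also had the narrow interquartile range and low weight given above. The part of any of these values in the low level of the 17 genes in that line was not tested. Without AZD1208 3, 40 of 41 members were still lower in the recurrent lines (median -0.45), the exception being Kif18a. Without vehicle 1 all 41 were (median -0.34), and without both lines 40 were (median -0.31), where 54.6% of all genes were lower.

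**Figure D5:**
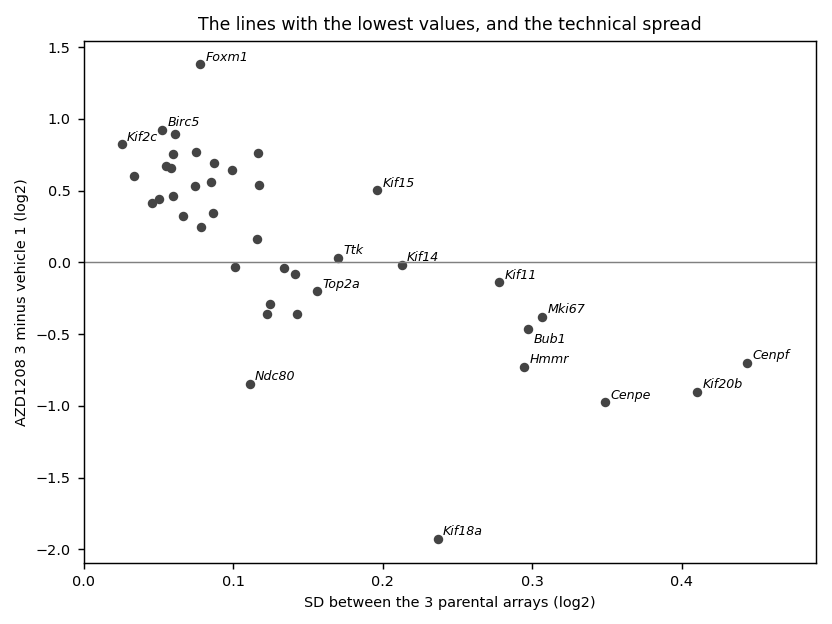
Difference between AZD1208 3 and vehicle 1 in log2 (vertical axis) against the SD between the 3 parental arrays in log2 (horizontal axis), 1 point a gene for 41 genes. Genes below 0 were lower in AZD1208 3, and these hold the largest technical SDs, up to 0.44 for Cenpf.

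The members varied more between vehicle lines than most genes did. Their median SD was 0.43 between vehicle lines, 0.27 between AZD1208 lines and 0.11 between parental arrays. For all genes tested the corresponding values were 0.19, 0.25 and 0.09. Vehicle 1 stood apart in its group, with a median member difference from the parental line of -0.85. It was -0.19 in vehicle 2 and -0.24 in vehicle 3. The SD between vehicle lines exceeded that between AZD1208 lines in 29 of 41 members, against 37.3% of all genes. The spread between lines, pooled within the 2 groups, was above the technical SD in 39 of 41 members (91.8% of all genes), with Ect2 and Anln as the exceptions.

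Markers of other cell types were set beside these values. The mean log2 level of 12 fibroblast genes was 6.61 to 6.66 in the parental arrays, 7.004 to 7.27 in the vehicle lines and 6.98 to 7.71 in the AZD1208 lines. Of the 9 tested, 5 were lower than in the parental line, by at most 0.36, and 4 were higher. Of these Postn (4.16, SE 1.61), Pdgfra (1.68, SE 0.66) and Fbln2 (1.17, SE 0.44) lay above the parental mean in all 6 lines, with unadjusted p of 0.0349, 0.0366 and 0.0313 (limma; adjusted p = 1 for each). For 9 epithelial genes the corresponding ranges were 7.89 to 7.95, 7.63 to 7.69 and 7.48 to 7.74. Of the 8 tested, 5 were lower and 3 higher. The keratin genes Krt19 (-1.52, SE 0.23, adjusted p = 0.679 with limma) and Krt14 (-0.72, SE 0.23, adjusted p = 1) were lower in all 6 lines, as were Krt18 and Cdh1, while Trp63 (0.43, SE 0.37) was higher in all 6. Of all genes tested, 11.8% lay above and 10.9% below the parental mean in all 6 lines. An unadjusted p under 0.05 (limma) was found for 2% of all genes higher and 0.754% lower. The marker genes with differences given here were named after their values were seen. The ranges were 5.96 to 6.04, 5.79 to 6 and 5.80 to 6.12 for 8 endothelial genes. For 8 myeloid genes they were 6.10 to 6.21, 6.09 to 6.66 and 6.05 to 6.51, and for 7 lymphocyte genes 6.01 to 6.06, 5.72 to 6.14 and 5.89 to 6.28. The part of these markers in the mitotic gene values was not tested.

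Vehicle and AZD1208 lines were then compared with the parental line separately, and both comparisons share that 1 sample. In vehicle lines all 41 members were lower (53.8% of all genes) with a median difference of -0.44, and in 33 of 41 all 3 lines were below the parental mean (26.3% of all genes). In AZD1208 lines all 41 were lower (53.7%) with a median of -0.51, and the corresponding count was 34 of 41 (22%). An unadjusted p under 0.05 was found for Racgap1 in vehicle lines (0.0441; 0.393% of all genes lower and 1.91% higher at that level). In AZD1208 lines it was found for Kif23 (0.0494; 1.02% lower and 1.59% higher). No member passed in either comparison (limma, adjusted p = 1), where 0% of genes did.

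The second comparison asked whether treatment of the mice with AZD1208 left a mark on these genes. AZD1208 and vehicle lines overlapped in all 41 members. The 2 groups did not overlap in 1.96% of all genes with AZD1208 lower and 1.4% with AZD1208 higher. The median difference was -0.05, with 33 members lower and 8 higher in AZD1208 lines, and 54.8% of all genes were lower. No member passed the threshold (limma, adjusted p = 1 for each; 0% of all genes), and none had an unadjusted p under 0.05 (0.361% of all genes lower and 0.155% higher). With 3 lines a group, limma recovered 41.3% of genes simulated with a log2 difference of 1 in this comparison. Smaller differences would thus often be missed. The simulation covered all 15526 genes, and recovery for the members alone was not tested. Their median SD between vehicle lines was 0.43, against 0.19 for all genes tested. Between AZD1208 lines it was 0.27, against 0.25.

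The members of smallest unadjusted p with lower values in AZD1208 lines were Cdc25c (-0.36, SE 0.33), Hmmr (-0.24, SE 0.25), Nek2 (-0.27, SE 0.28) and Top2a (-0.15, SE 0.19). For Nek2 the vehicle lines were at 8.61, 9.47 and 9.74 and the AZD1208 lines at 8.96, 8.996 and 9.05. The AZD1208 lines lay close together inside the range of the vehicle lines. Those with higher values were Racgap1 (0.07, SE 0.17), Cdk1 (0.07, SE 0.21), Bub1b (0.04, SE 0.26) and Cenpe (0.04, SE 0.39).

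This comparison depended on which lines entered it. Without vehicle 1, 39 of 41 members were lower in AZD1208 lines (54.1% of all genes), the median difference was -0.26, and in 22 of 41 the groups did not overlap, with AZD1208 lower (12.8%). The median difference turned its sign without vehicle 2 (0.046, with 12 of 41 lower), without vehicle 3 (0.017, with 19 lower) and without AZD1208 3 (0.016, with 20 lower). No member passed the adjusted threshold with any line left out.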

How the data were processed

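The authors deposited a log2 intensity for each probe set on each array, made with oligo per the submitters' processing notes. Its version and how it normalized and summarised probes is not given in these sources. Among the 41345 probe sets, a single symbol was found for 23521 and several for 1814, which were named for none; 16010 stayed unnamed. Where a gene had several probe sets, the brightest was used, and the 30% of genes with the lowest mean over the arrays were left out. The parental arrays were averaged. Differences were fitted for 7 samples with limma 3.58.1 in R 4.3.3 (lmFit, eBayes, group alone in the model, leaving 4 residual degrees of freedom), adjusted by Benjamini-Hochberg over 15526 genes, threshold 0.05, two-sided. The lone parental sample is assumed to vary like the lines. P-values measure only the spread between these lines, and the number of arrays limits the precision.

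The members and gene lists were chosen with earlier results of these data known. All members could be named for recurrent against parental, the 4 of smallest unadjusted p in each direction for AZD1208 against vehicle, the 2 of smallest p of each pathway list, and Wee1, Cdkn1a, Mybl2 and Myc. Same-numbered vehicle and AZD1208 lines correlated at 0.15, 0.12 and 0.53 in their deviations from group means. No label calls the numbers a pairing. The main fit did not use them, and they entered only as a replicate block among the alternatives. Other normalizations, filters, probe set rules, array weights, a replicate block and leaving out each array were tried. The fit was tested on simulated data with 15526 genes. For recurrent against parental, a log2 change of 1 was recovered in 13.8% of the genes given it, and a change of 2 in 61.7%. Recovery for the members alone was not tested.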

Additional observations from a re-analysis of the deposited data

How the results depend on the processing

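Members past the adjusted threshold stayed at 0 in the 4 comparisons under the alternatives fitted. The median member difference for recurrent against parental ranged from -0.48 to -0.40 (-0.55 to -0.34 with single arrays left out, -0.31 without vehicle 1 and AZD1208 3). For AZD1208 against vehicle it ranged from -0.10 to -0.0038 (-0.26 to 0.05, and -0.21 without both lines). With the parental arrays as 3 samples, which takes technical for biological spread, 156 genes passed for recurrent, 53 for vehicle and 41 for AZD1208 against parental, none a member; Kifc1 passed there (-0.58, adjusted p = 0.0426; 0.0426 to 1 over its alternatives). With array weights 1 gene passed for recurrent and 2 for AZD1208 against parental, and without vehicle 1 the latter count was 1 (0 to 1 with single arrays left out). With the replicate numbers as a block, a pairing that rests on the data alone, 2 genes passed for recurrent and 2 for AZD1208 against parental, and 0 for AZD1208 against vehicle. No other call changed with the block. Vehicle 1 correlated more with AZD1208 2 (0.26) than with AZD1208 1 (0.15).

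With array weights the sign turned for Kif18a (0.29 against parental), Bub1b (-0.17) and Hmmr (0.047, both AZD1208 against vehicle). With single arrays left out Kif18a ranged from -0.33 to 0.33 and Myc from -0.036 to 0.20. For AZD1208 against vehicle Racgap1 ranged from -0.066 to 0.18, Cdk1 from -0.14 to 0.19, Bub1b from -0.25 to 0.20, Cenpe from -0.18 to 0.48 and Hmmr from -0.46 to 0.025. The cause of these turns was not tested. Members with every line below the lowest parental array numbered 18 to 28, the latter without parental array 3 (7.03% of all genes). Members lower in AZD1208 than in vehicle lines numbered 12 to 39. Quantile normalization gave 22 of 41, where 48.7% of all genes were lower. Members with no overlap numbered 0 to 22 with AZD1208 lower and 0 to 3 with AZD1208 higher. The 22 came without vehicle 1 (53.7%, against 12.8% of all genes) and the 3 without AZD1208 3 (7.32%, against 6.37%). Leaving out vehicle 1 and AZD1208 3 together, an alternative chosen after seeing the data, gave 24 and 3. These are 58.5% and 7.32% of the members, against 22.4% and 15% of all genes.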

Other observations

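Some genes of the wider mitotic lists, chosen after their values were seen, followed Kif18a across the lines, with the highest value in AZD1208 1 and the lowest in AZD1208 3. Stag2, a cohesin subunit gene, was at 8.07 in the parental line, 9.39 in AZD1208 1 and 7.49 in AZD1208 3. Cenpq, of the inner kinetochore, was at 7.94, 8.94 and 6.62, and the condensin subunit gene Smc2 was at 9.39, 10.07 and 8.17. The technical SD between the parental arrays was 0.26 for Stag2, 0.21 for Cenpq and 0.28 for Smc2. Cdc25a, the phosphatase of the G1/S transition, followed the entry kinases instead: it was at 10.21 in the parental line and at 8.51 in vehicle 1, its lowest line. Vehicle 2 and 3 had 10.14 and 10.18, and the AZD1208 lines 9.33, 9.71 and 9.60.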
